A study of Saccharomyces cerevisiae with 30 samples.

Results

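The 35 genes described here encode the machinery of sulfate assimilation and of methionine, cysteine and S-adenosylmethionine (SAM) metabolism in budding yeast. They were chosen by gene name from what their products do, out of 6101 genes in each of the 2 expression tables of the study. Earlier results of these data were known when they were chosen. All 35 were found in both tables, and all 35 had a mean of at least 1 FPKM in each, so that every member entered the tests. FPKM is the number of sequenced fragments scaled by gene length and library size, a level per length that can be compared between genes. By role, 7 members take up sulfate or sulfur-containing amino acids, 8 assimilate sulfate, 4 make methionine, 5 interconvert homocysteine and cysteine, 5 belong to the SAM cycle and 6 regulate the pathway.

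RNA was sequenced from whole cells of BY4741, a haploid laboratory strain, and of mutants of SAGA, a coactivator complex that acetylates histones. One set of 12 libraries, called the Ada3 set here, compared wild type (WT) with Ada3-3KR, in which acetylation of the subunit Ada3 is mutated. Another set of 18 libraries, the bromodomain set, had a WT of its own beside Gcn5m and Spt7m, in which the acetyl-lysine-binding bromodomain of the subunit Gcn5 or Spt7 is mutated. Cultures of 5 mL grown at 28 °C in YP (yeast extract and peptone) with glucose were moved at an OD600 of 0.7 to YP with 2% glucose or 2% sucrose for 30 min, and each strain and sugar of a set had 3 libraries. The labels give BY4741 as the strain of every group, and this background is known to lack MET17, LEU2 and URA3 and to carry a partial deletion of HIS3, so all controls share these deletions. MET17 encodes the enzyme that builds sulfide into homocysteine, and cells without it depend on organic sulfur, which YP supplies. Whether replicates came from separate cultures is not in the labels, so the p-values rest on library-to-library spread, which may be technical.

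As background, yeast takes up sulfate, activates it with ATP and reduces it to sulfide, which is joined to a homoserine derivative to give homocysteine. Homocysteine is methylated to methionine, methionine is activated to SAM, the methyl donor of the cell, and the S-adenosylhomocysteine left after methyl transfer is split back to homocysteine. Transcription of most of these genes is driven by the activator Met4, which has no DNA binding of its own and is brought to promoters by Cbf1 with Met28 or by Met31 and Met32, while the ubiquitin ligase subunit Met30 restrains Met4 when sulfur is plentiful.

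MET17 was listed at 0 in all 30 libraries and LEU2 had at most 0.14 FPKM, while HIS3, of which part remains in this background, had 56.8 to 154. URA3 had at most 2.30 FPKM in every WT and Ada3-3KR library, but 223 to 444 in Gcn5m and 7079 to 11464 in Spt7m, so in the bromodomain set the mutation and the presence of URA3 RNA cannot be told apart. Since the labelled mutations alter proteins, the RNA of NGG1, which encodes Ada3 (15.2 to 24.9 FPKM over all libraries), of GCN5 (17.1 to 41.5) and of SPT7 (18.7 to 28.3) does not check the genotypes. Sequencing depth is unknown, and FPKM summed to 1152780 to 1288949 per library. FPKM is a share of each library's RNA, so a lower value can mean less of that RNA or more of the rest.

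A change is given as a difference in log2(FPKM + 1) ± SE between 3 libraries and 3 libraries, from limma fitted over all tested genes of a set. Called means an adjusted p (Benjamini-Hochberg, over all tested genes) under 0.05. Where a change follows a gene in parentheses it was called, except where its adjusted p is printed. Rose and fell are used for sucrose against glucose at 30 min. An interaction is the mutant's sucrose effect minus the WT's. Since all groups of a set share 1 spread, comparisons within a set are not independent, and Gcn5m and Spt7m share their WT libraries. Levels are not tested across the 2 tables. Rescaling every library to 1 median, or quantile normalization, moved the median change of all genes by -0.11 to -0.12 between the media in WT of the Ada3 set and by -0.20 to -0.26 in the strains of the bromodomain set, so the median of all genes stands beside that of the members.

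The stretches upstream of the members were searched for the motifs of the factors that bring Met4 to DNA, and those of 6 members with large changes are shown. Windows of 300 bases, from 400 to 101 bases before the start codon, were read from the R64 reference for all members and for 6001 genes. Each window was searched on both strands for CACGTG, the E-box that Cbf1 binds, and for CTGTGG, the core of the Met31 and Met32 site. The search also covered TGACTC, the core of the site of the amino acid regulator Gcn4. No matches overlapped within a window. The E-box was present in 18 of 35 members and in 4.55% of all windows, CTGTGG in 17 of 35 and in 8.35%, and TGACTC in 9 of 35 and in 8.47%. MMP1 and MHT1 count the same CTGTGG matches, which lie between these divergent neighbours. Both the E-box and CTGTGG were present in 7 members, and 7 had neither. SAM3, SAM4, IRC7, YCT1 and MET31 held none of the 3 motifs in this window. These are matches of letters, not measured binding.

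All 6 windows below hold CTGTGG and differ in their other motifs. STR3, SAM3, IRC7, YCT1, MET2, MET14 and CYS3, members with large changes too, have no CTGTGG in this window and are not shown. Of these, MET2, MET14 and CYS3 have 1 E-box each. The window of MMP1, chrXII:17556-17855 (+ strand), holds 2 CTGTGG matches. It begins within the coding region of MHT1 and ends between MHT1 and MMP1, divergent neighbours whose coding regions are 342 bases apart. Its 2 matches are the same bases as the 2 CTGTGG matches in the window of MHT1, read from the other strand. That of MUP1, chrVII:599017-599316 (+ strand), holds 2 CTGTGG and 2 TGACTC matches and no E-box. Those of MET3, chrX:455839-456138 (+ strand), and MET10, chrVI:212912-213211 (+ strand), each hold 2 E-boxes and 1 CTGTGG. SAM1, chrXII:514862-515161 (+ strand), has 1 CTGTGG, and SAM2, chrIV:1454565-1454864 (- strand), has 1 CTGTGG and 1 E-box. Each is written 5′ to 3′ on the strand of its gene in lower case, with the motif matches in capitals, and the reverse complement CCACAG or GAGTCA stands where the match is on the other strand.
MMP1: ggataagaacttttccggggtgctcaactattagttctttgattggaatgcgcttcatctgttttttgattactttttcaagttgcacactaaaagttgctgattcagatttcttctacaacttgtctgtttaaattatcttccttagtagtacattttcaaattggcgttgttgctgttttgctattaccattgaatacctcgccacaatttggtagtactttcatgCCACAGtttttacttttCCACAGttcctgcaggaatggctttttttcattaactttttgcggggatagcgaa
MUP1: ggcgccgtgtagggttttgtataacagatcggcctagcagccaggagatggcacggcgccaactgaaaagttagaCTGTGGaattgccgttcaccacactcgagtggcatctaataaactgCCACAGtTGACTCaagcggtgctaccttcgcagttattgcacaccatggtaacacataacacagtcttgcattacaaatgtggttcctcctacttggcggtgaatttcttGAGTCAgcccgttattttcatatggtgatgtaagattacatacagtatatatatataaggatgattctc
MET3: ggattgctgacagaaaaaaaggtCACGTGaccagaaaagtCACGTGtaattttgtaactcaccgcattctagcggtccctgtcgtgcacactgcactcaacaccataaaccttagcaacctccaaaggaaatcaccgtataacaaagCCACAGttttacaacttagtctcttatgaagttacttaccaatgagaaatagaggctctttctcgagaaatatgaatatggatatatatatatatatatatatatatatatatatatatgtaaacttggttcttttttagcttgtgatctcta
MET10: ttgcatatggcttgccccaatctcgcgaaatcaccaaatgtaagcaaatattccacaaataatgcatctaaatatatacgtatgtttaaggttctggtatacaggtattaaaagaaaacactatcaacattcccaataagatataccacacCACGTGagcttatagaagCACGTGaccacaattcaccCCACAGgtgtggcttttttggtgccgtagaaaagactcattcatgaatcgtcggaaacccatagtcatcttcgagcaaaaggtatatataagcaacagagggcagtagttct
SAM1: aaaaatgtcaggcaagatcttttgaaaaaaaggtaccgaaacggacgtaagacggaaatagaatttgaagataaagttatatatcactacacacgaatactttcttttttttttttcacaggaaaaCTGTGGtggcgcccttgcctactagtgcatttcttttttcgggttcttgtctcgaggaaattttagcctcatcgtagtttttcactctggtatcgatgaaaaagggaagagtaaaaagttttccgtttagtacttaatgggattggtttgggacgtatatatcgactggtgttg
SAM2: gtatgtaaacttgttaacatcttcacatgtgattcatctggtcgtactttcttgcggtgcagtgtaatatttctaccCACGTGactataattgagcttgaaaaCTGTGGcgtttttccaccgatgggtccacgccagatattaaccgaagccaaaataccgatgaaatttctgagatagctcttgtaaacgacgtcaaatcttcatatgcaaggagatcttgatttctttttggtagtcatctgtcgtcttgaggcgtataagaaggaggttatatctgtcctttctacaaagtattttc

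**Figure D1:**
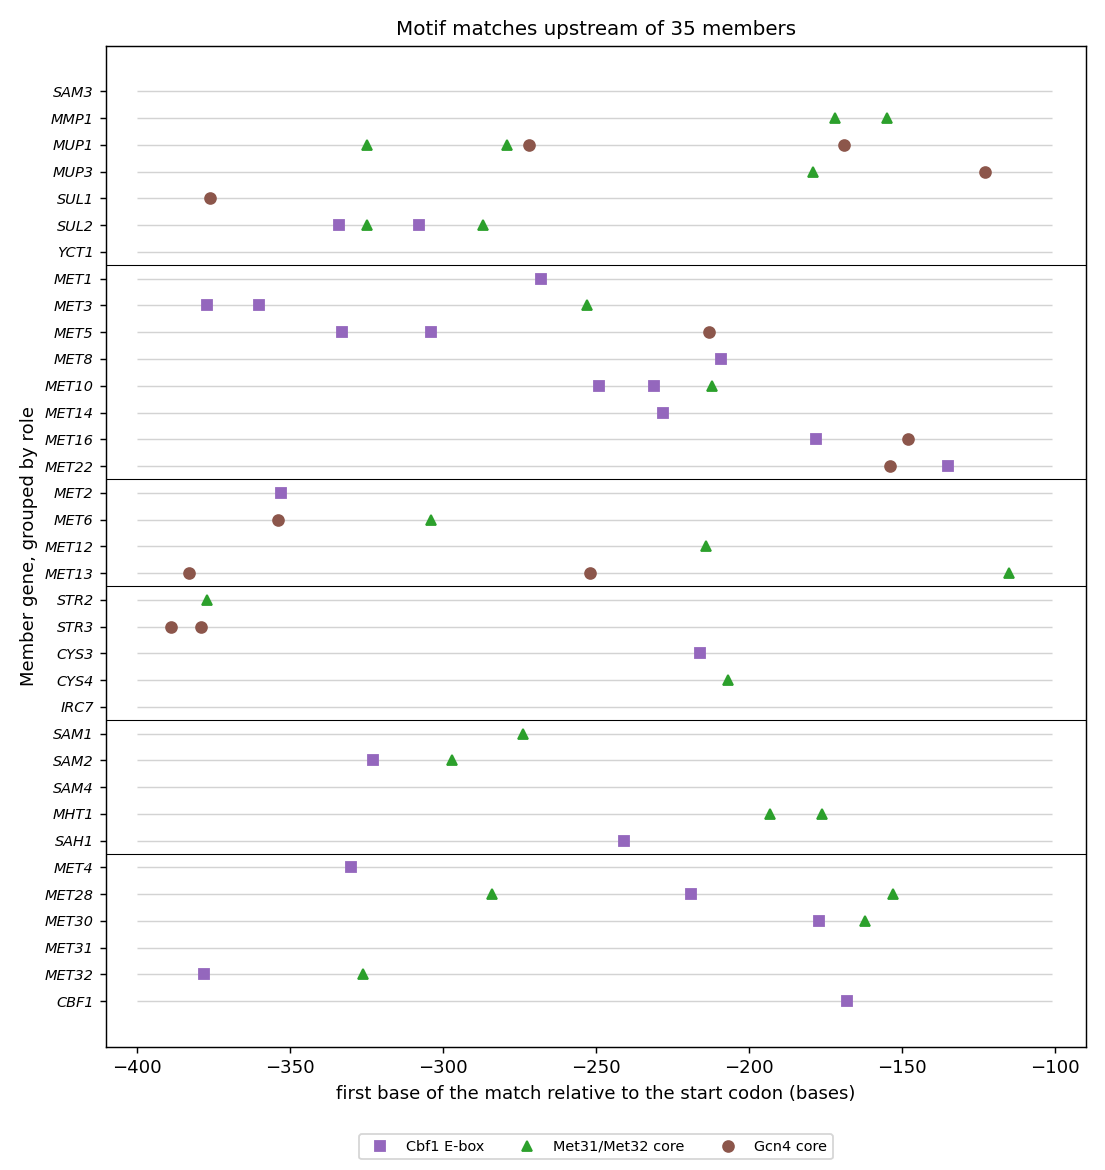
Positions of CACGTG (Cbf1 E-box), CTGTGG (Met31/Met32 core) and TGACTC (Gcn4 core) in the window from 400 to 101 bases before the start codon of each of the 35 members, with the x axis in bases relative to the start codon and 1 row per gene. A marker is the first base of a match on either strand; 18 members carry the E-box and 17 carry CTGTGG, and rows without a marker had no match in this window.

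In sucrose, several genes for the uptake and the making of methionine rose in every strain. Others, such as MET13 and MUP3, rose in some strains only. MMP1, the permease for S-methylmethionine (chrXII:17956-19707, + strand), rose by 1.35 ± 0.05 in WT of the Ada3 set, 1.47 ± 0.05 in Ada3-3KR, 2.10 ± 0.07 in WT of the bromodomain set, 1.94 ± 0.07 in Gcn5m and 2.01 ± 0.07 in Spt7m. In the same order, its divergent neighbour MHT1, which uses S-methylmethionine to methylate homocysteine (chrXII:16639-17613, - strand), rose by 1.48 ± 0.11, 1.34 ± 0.11, 2.12 ± 0.10, 1.72 ± 0.10 and 1.84 ± 0.10. MET6, the methionine synthase (chrV:339864-342167, - strand), rose by 1.42 ± 0.04, 1.27 ± 0.04, 1.45 ± 0.05, 1.28 ± 0.05 and 1.32 ± 0.05. STR3, the cystathionine beta-lyase (chrVII:154615-156012, - strand), rose by 1.40 ± 0.08, 1.37 ± 0.08, 1.32 ± 0.16, 1.32 ± 0.16 and 1.28 ± 0.16. For these 4 genes the sucrose and glucose libraries did not overlap in any strain. The share of all genes without overlap was not counted, for this or for later statements of overlap. MUP1, the high-affinity methionine permease (chrVII:599417-601141, + strand), also rose in all 5, by 1.11 ± 0.05, 0.47 ± 0.05, 1.69 ± 0.05, 2.13 ± 0.05 and 1.76 ± 0.05, with the least in Ada3-3KR.

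In WT of the Ada3 set 25 members rose, 3 fell and 7 were not called, where 46.6% of 5830 genes were called (32.7% higher and 13.9% lower). In Ada3-3KR 26 rose and 0 fell, beside 50.7% of all genes called (32.9% higher and 17.7% lower). In WT of the bromodomain set 28 rose and 3 fell, beside 66.7% of 5841 genes called (50.9% higher and 15.7% lower). Gcn5m had 24 higher and 7 lower, beside 74% of all genes called (52.2% higher and 21.8% lower). Spt7m had 22 higher and 7 lower, beside 76% of all genes called (51.6% higher and 24.4% lower). With every library rescaled to 1 median, the members called higher and lower were 21 and 3, 23 and 1, 17 and 5, 17 and 8, 18 and 11 in these 5 strains in turn, while of all genes 18, 24.5, 22.8, 29.8 and 32.1% were called higher and 30.3, 26.3, 37.9, 39.5 and 41.6% lower. After quantile normalization the members were 20 and 3, 24 and 1, 19 and 5, 17 and 7, 18 and 10, and all genes 18.9, 24.9, 25.9, 31.2 and 33.8% higher and 25.8, 25, 31.7, 37.5 and 39% lower. Under both scalings, more of all genes were lower than higher, except that Ada3-3KR was nearly even after quantile normalization (24.9 and 25%). More members were higher than lower in every strain under both. The median change of the members was 0.36, 0.38, 0.40, 0.38 and 0.45 in these 5 strains, beside 0.07, 0.06, 0.17, 0.20 and 0.19 over all tested genes. Members called with at least a 2-fold change numbered 5, 8, 8, 12 and 14 of 35, where 1.9, 2.11, 4.42, 8.44 and 10% of all tested genes were so called. All the falls of 2-fold or more among them were in Gcn5m or Spt7m.

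**Figure D2:**
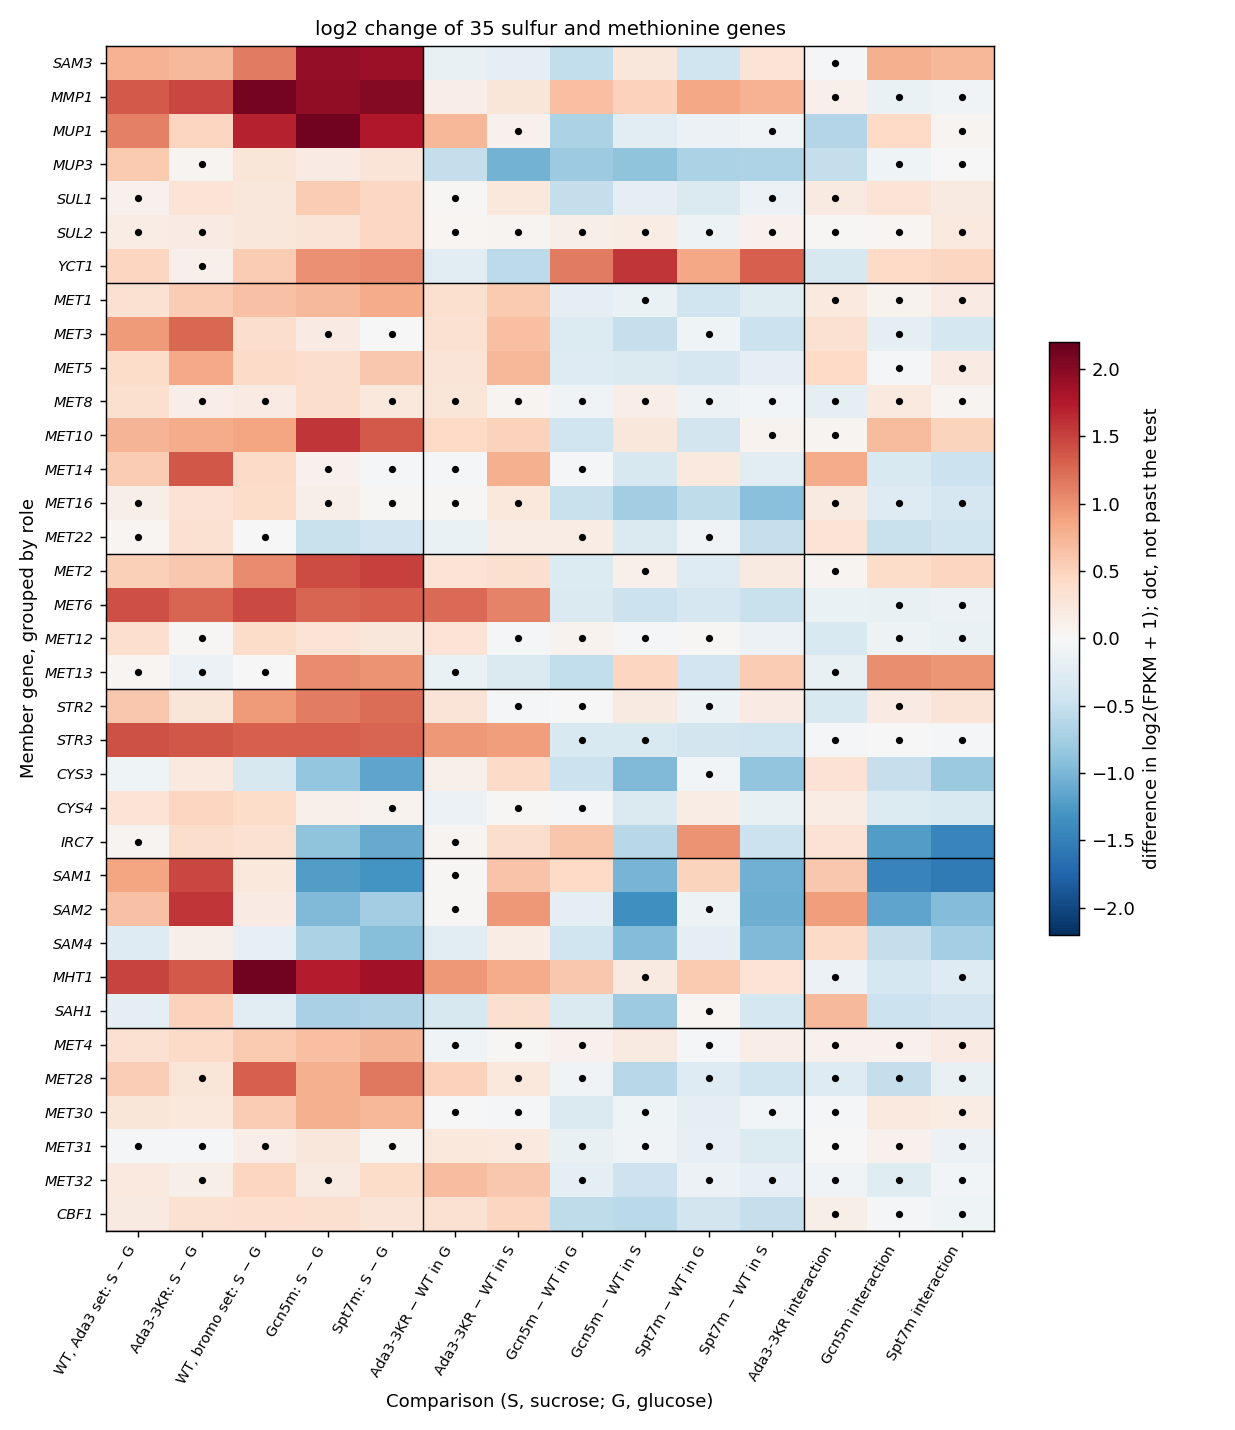
Log2 changes of the 35 members (rows, grouped by role) in the 14 comparisons (columns; S, sucrose; G, glucose), as differences in log2(FPKM + 1) on a colour scale from blue (lower) to red (higher), with a dot where the change was not called. MMP1, MHT1, MET6, STR3 and MUP1 are red in all 5 sugar columns, while SAM1 and SAM2 are blue in the sugar columns of Gcn5m (-1.23 ± 0.04 and -0.97 ± 0.06) and Spt7m (-1.32 ± 0.04 and -0.77 ± 0.06).

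SAM synthesis and part of cysteine metabolism changed in opposite directions in the mutants of the 2 sets. SAM1, 1 of the 2 SAM synthetases (chrXII:515262-516410, + strand), rose by 0.86 ± 0.04 in WT of the Ada3 set and by 1.46 ± 0.04 in Ada3-3KR, and fell by 1.23 ± 0.04 in Gcn5m and by 1.32 ± 0.04 in Spt7m. In WT of the bromodomain set SAM1 was 0.23 ± 0.04, which became -0.02 after median rescaling and 0.11, not called, after quantile normalization. SAM2, the other SAM synthetase (chrIV:1453310-1454464, - strand), rose by 0.64 ± 0.05 and 1.57 ± 0.05 in the Ada3 set and fell by 0.97 ± 0.06 and 0.77 ± 0.06 in Gcn5m and Spt7m. In their WT SAM2 was 0.19 ± 0.06, which became -0.07 after median rescaling and -0.04 after quantile normalization, and 0.16 and not called without replicate 2 of WT in glucose. IRC7, a pyridoxal phosphate enzyme that splits cysteine and related compounds (chrVI:264204-265226, + strand), fell by 0.89 ± 0.05 in Gcn5m and 1.11 ± 0.05 in Spt7m, and was 0.34 ± 0.05 in their WT, 0.09 after median rescaling. CYS3, the cystathionine gamma-lyase that makes cysteine (chrI:130799-131983, + strand), fell by 0.85 ± 0.10 and 1.17 ± 0.10 in Gcn5m and Spt7m, and by 0.35 ± 0.10 in WT, -0.61 after median rescaling and -0.21 without replicate 3 of WT in sucrose. The other large sugar changes were of MET14 (1.36 ± 0.08) and MET3 (1.27 ± 0.07) in Ada3-3KR, MET3 (0.94 ± 0.07) and SAM3 (0.76 ± 0.07) in WT of the Ada3 set, MET28 (1.32 ± 0.15), SAM3 (1.15 ± 0.07) and MET2 (1.03 ± 0.07) in WT of the bromodomain set, and SAM3, MET10 and MET2 in Gcn5m (1.94 ± 0.07, 1.56 ± 0.07 and 1.43 ± 0.07) and Spt7m (1.89 ± 0.07, 1.35 ± 0.07 and 1.50 ± 0.07).

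The difference between the sucrose effects was tested directly. For Ada3-3KR 11 members responded more positively and 6 more negatively than in WT, beside 38.8% of all genes called (17.2% higher and 21.6% lower). After median rescaling the members split into 12 and 4 and all genes into 22.5% and 17.6%. The members with the largest difference were SAM2 (0.93 ± 0.07), MET14, the APS kinase (0.81 ± 0.11), SAH1, the S-adenosylhomocysteine hydrolase (0.71 ± 0.04), MUP1 (-0.64 ± 0.07), SAM1 (0.60 ± 0.06), the low-affinity methionine permease MUP3 (-0.52 ± 0.11), the sulfite reductase subunit MET5 (0.43 ± 0.11) and SAM4, which methylates homocysteine with SAM (0.42 ± 0.05). For Gcn5m 8 were more positive and 10 more negative, beside 41.6% of all genes called (20.9% higher and 20.7% lower), and for Spt7m 7 and 10, beside 47.5% (23.9% higher and 23.5% lower). In Gcn5m the largest were SAM1 (-1.47 ± 0.06), IRC7 (-1.23 ± 0.07), SAM2 (-1.15 ± 0.09), the methylenetetrahydrofolate reductase MET13 (1.02 ± 0.09), the SAM permease SAM3 (0.79 ± 0.11), MET10 (0.70 ± 0.09), SAM4 (-0.52 ± 0.07) and CYS3 (-0.50 ± 0.14). The same 8 members led in Spt7m, which was compared with the same WT libraries: SAM1 (-1.55 ± 0.06), IRC7 (-1.46 ± 0.07), MET13 (0.97 ± 0.09), SAM2 (-0.95 ± 0.09), CYS3 (-0.81 ± 0.14), SAM4 (-0.75 ± 0.07), SAM3 (0.74 ± 0.11) and MET10 (0.49 ± 0.09). The median interaction of the members was 0.07 in Ada3-3KR, -0.09 in Gcn5m and -0.08 in Spt7m, beside -0.03, 0.00 and 0.01 over all genes.

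**Figure D3:**
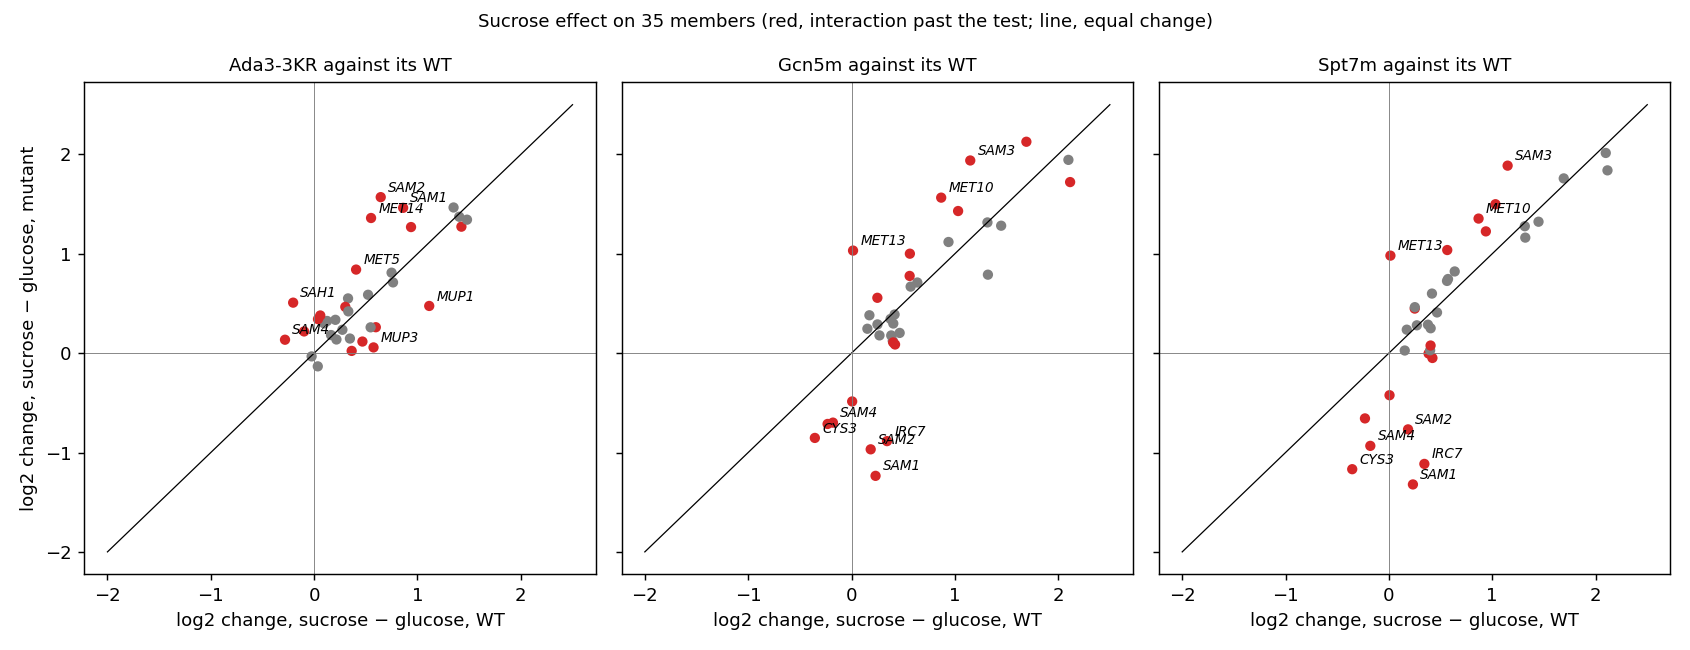
Sucrose effect in WT (x axis) against that in each mutant (y axis), both as log2 changes, with 1 point per member, a line at equal change, red points where the interaction was called and names for the 8 largest. SAM1, SAM2 and IRC7 lie furthest below the line in Gcn5m and Spt7m and MET13 furthest above it; in Ada3-3KR SAM2 (0.93 ± 0.07) lies furthest above. Each panel plots a mutant against WT libraries that also enter the interaction, and the Gcn5m and Spt7m panels use the same ones.

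Within 1 medium, Ada3-3KR had more members above WT than below, and the bromodomain mutants more below. The calls over all genes leaned the same way in each. In glucose, 17 members were higher and 7 lower in Ada3-3KR than in WT, beside 62.2% of all genes called (40.2% higher and 22.1% lower), and in sucrose 20 and 4, beside 55.9% (33.8% and 22.2%). In glucose MET6 (1.24 ± 0.04), MHT1 (0.96 ± 0.11), STR3 (0.96 ± 0.08), MUP1 (0.73 ± 0.05), MET32 (0.67 ± 0.08), MET28 (0.51 ± 0.14) and MET10 (0.44 ± 0.06) were higher and MUP3 (-0.52 ± 0.08) was lower. In sucrose MET6 (1.09 ± 0.04), SAM2 (0.95 ± 0.05), STR3 (0.92 ± 0.08), MHT1 (0.82 ± 0.11), MET14 (0.78 ± 0.08), MET5 (0.72 ± 0.08) and MET3 (0.66 ± 0.07) were higher and MUP3 (-1.04 ± 0.08) was lower. Gcn5m had 5 members higher and 18 lower than WT in glucose, beside 62% of all genes called (20.8% higher and 41.2% lower), a split of 9 and 15 after median rescaling or quantile normalization, and 7 and 19 in sucrose, beside 70.6% (28% and 42.6%). Spt7m had 7 and 15 in glucose, beside 53.2% of all genes called (15.7% higher and 37.5% lower), 8 and 11 after quantile normalization, and 8 and 20 in sucrose, beside 70.3% (28.8% and 41.5%), 10 and 14 after quantile normalization. For all genes, too, the lower calls outnumbered the higher ones in these 4 comparisons, but after quantile normalization they were nearly even, with 29.2, 34.3, 22.9 and 33.8% higher and 30.6, 35.9, 24.8 and 35.5% lower. The members' medians were -0.22, -0.31, -0.13 and -0.19 beside -0.10, -0.09, -0.10 and -0.08. For Ada3-3KR against WT they were 0.11 in glucose and 0.23 in sucrose, beside 0.09 and 0.05 over all genes.

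Of the single members, YCT1, a cysteine permease (chrXII:30109-31704, + strand), was higher in Gcn5m than in WT, by 1.13 ± 0.06 with glucose and 1.57 ± 0.06 with sucrose, and higher in Spt7m, by 0.85 ± 0.06 and 1.32 ± 0.06. In glucose MMP1, IRC7 and MHT1 were also higher in Gcn5m (0.67 ± 0.07, 0.61 ± 0.05 and 0.59 ± 0.10) and in Spt7m (0.86 ± 0.07, 0.98 ± 0.05 and 0.58 ± 0.10), and SAM1 in Spt7m (0.49 ± 0.04). MUP3 was lower in both mutants in glucose (-0.80 ± 0.08 and -0.69 ± 0.08) and in sucrose (-0.89 ± 0.08 and -0.68 ± 0.08), as were in glucose MUP1, CBF1 and SAM3 in Gcn5m (-0.69 ± 0.05, -0.55 ± 0.07 and -0.55 ± 0.07) and MET16 and MET1 in Spt7m (-0.55 ± 0.12 and -0.44 ± 0.08). In sucrose SAM2, SAM1, CYS3, SAM4 and MET16, the PAPS reductase, were lower in Gcn5m (-1.34 ± 0.06, -1.03 ± 0.04, -0.97 ± 0.10, -0.95 ± 0.05 and -0.77 ± 0.12) and in Spt7m (-1.07 ± 0.06, -1.06 ± 0.04, -0.87 ± 0.10, -0.96 ± 0.05 and -0.92 ± 0.12), SAH1 was lower in Gcn5m (-0.80 ± 0.05) and MMP1 was higher in Spt7m (0.77 ± 0.07). Only the 8 largest called changes of each comparison are named here, so a gene named for 1 mutant may have changed in the other. In Spt7m in sucrose, 4 of the 5 SAM cycle members were lower than WT, SAH1 among them, and 1 was higher. SAM4 shares 99.4% of its bases with YMR321C over 32.0% of its length, so its reads could be split between the 2 genes, and its values are uncertain.

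Over the 14 comparisons 8 called members each, those with the largest change, gave 112 values, and the adjusted p was at most 0.0082. Of these 112 values, 0 lost the call, changed sign or moved by over 1.5 times under another pseudocount, filter, scaling or replicate block or without any 1 library, where the adjusted p was at most 0.0322. For 1 gene taken alone, an exact two-sided test of 3 libraries against 3 cannot go below 0.1.

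Values in every library follow by role, always as FPKM in replicates 1, 2 and 3. The replicate numbers have no order. Counts by role stand against the shares of all genes that rose and fell in the same strain, given above.

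Of the 7 uptake members, 5 rose and 0 fell in sucrose in WT of the Ada3 set, 4 and 0 in Ada3-3KR, and 7 and 0 in each strain of the bromodomain set, where median rescaling left 4 rising in WT, 5 in Gcn5m and 6 in Spt7m, with 0 falling. In the Ada3 set, MMP1 had 16.9, 16.3 and 17.1 in WT in glucose, 45.3, 42.8 and 44.9 in WT in sucrose, 19.2, 18.1 and 18.8 in Ada3-3KR in glucose and 49.3, 56.5 and 54.7 in Ada3-3KR in sucrose. The sucrose libraries were all above the glucose libraries. MMP1 had 12.1, 12.7 and 12.7 in WT of the bromodomain set in glucose and 60.9, 59.6 and 50.5 in sucrose. In Gcn5m MMP1 had 18.5, 21.7 and 21.2 in glucose and 82.8, 81.9 and 79.8 in sucrose, and in Spt7m 24.4, 23.9 and 22.04 in glucose and 93.9, 93.6 and 106 in sucrose. MMP1 was lowest in WT in glucose, and Gcn5m and Spt7m were above WT in both media with no overlap. MUP1 in the Ada3 set had 53.8, 60.3 and 58.4 in WT in glucose, 129, 124 and 124 in WT in sucrose, 93.3, 99.6 and 94.2 in Ada3-3KR in glucose and 126, 138 and 136 in Ada3-3KR in sucrose. Ada3-3KR lay above WT in glucose and overlapped it in sucrose. MUP1 had 41.6, 42.2 and 41.4 in WT of the bromodomain set in glucose and 139.7, 146 and 126 in sucrose. In Gcn5m MUP1 had 25.2, 26.1 and 25.2 in glucose and 120.4, 114 and 109.7 in sucrose, and in Spt7m 37.3, 37.9 and 38.3 in glucose and 123, 130.4 and 138 in sucrose. Each strain was higher in sucrose, Gcn5m was below WT in glucose, and Spt7m overlapped WT in sucrose (-0.07 ± 0.05, adjusted p = 0.245).

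SAM3, the high-affinity SAM permease, had in the Ada3 set 22.7, 28.3 and 24.5 in WT in glucose, 42.5, 42.2 and 45.04 in WT in sucrose, 21.7, 22.3 and 22.4 in Ada3-3KR in glucose and 36.2, 35.5 and 39.1 in Ada3-3KR in sucrose. Both strains were higher in sucrose. SAM3 had 34.01, 29.997 and 32.3 in WT of the bromodomain set in glucose and 73.6, 78.5 and 65.4 in sucrose. In Gcn5m SAM3 had 23.6, 21.7 and 19.8 in glucose and 85.3, 89.9 and 82.4 in sucrose, and in Spt7m 24.99, 21.3 and 23.99 in glucose and 87.95, 89.3 and 89.9 in sucrose. Gcn5m and Spt7m were below WT in glucose and above it in sucrose, without overlap. YCT1 in the Ada3 set had 64.2, 66.7 and 76.4 in WT in glucose, 91.2, 97.7 and 98.2 in WT in sucrose, 59.4, 56.2 and 60.9 in Ada3-3KR in glucose and 72.5, 60.5 and 59.4 in Ada3-3KR in sucrose. WT was higher in sucrose (0.47 ± 0.08), whereas the media overlapped in Ada3-3KR (0.12 ± 0.08, adjusted p = 0.224). YCT1 had 94.7, 82.1 and 83.3 in WT of the bromodomain set in glucose and 120.3, 128 and 138 in sucrose. In Gcn5m YCT1 had 182, 192 and 199.8 in glucose and 393, 379 and 379 in sucrose, and in Spt7m 151, 155 and 162 in glucose and 327, 313 and 326 in sucrose. Every Gcn5m and Spt7m library was above every WT library of the same medium.

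MUP3 in the Ada3 set had 22.6, 19.9 and 21.2 in WT in glucose, 31.9, 30.6 and 33.8 in WT in sucrose, 14.04, 16.7 and 12.96 in Ada3-3KR in glucose and 15.01, 15.2 and 15.1 in Ada3-3KR in sucrose. In sucrose Ada3-3KR was below WT without overlap, and its own media overlapped. MUP3 had 16.5, 18.1 and 17.6 in WT of the bromodomain set in glucose and 20.9, 22.2 and 20.4 in sucrose. In Gcn5m MUP3 had 10.1, 8.36 and 10.4 in glucose and 11.01, 10.4 and 11.5 in sucrose, and in Spt7m 10.8, 10.04 and 10.3 in glucose and 14.005, 12.8 and 11.8 in sucrose. Gcn5m and Spt7m were below WT in both media. The sugar change of MUP3 was small in these 3 strains, 0.27 ± 0.08 in WT, 0.18 ± 0.08 in Gcn5m and 0.28 ± 0.08 in Spt7m, and became 0.03, -0.06 and 0.03 after median rescaling, with 0 of the 3 called. The Gcn5m call was lost without replicate 2 of Gcn5m in glucose (0.09) or replicate 1 or 3 of Gcn5m in sucrose (0.18 and 0.15). Of the sulfate permeases, SUL1 ranged from 22.6 to 32.6 FPKM in the Ada3 set and from 16.98 to 33.6 in the bromodomain set. SUL2 ranged from 12.3 to 16.7 and from 11.02 to 17.9. Neither was called between the media in WT of the Ada3 set (SUL1 0.10 ± 0.07, adjusted p = 0.302; SUL2 0.16 ± 0.07, adjusted p = 0.0857), and in Ada3-3KR SUL1 rose by 0.30 ± 0.07 and SUL2 was 0.18 ± 0.07, adjusted p = 0.0531. SUL1 rose in WT of the bromodomain set by 0.25 ± 0.06, in Gcn5m by 0.56 ± 0.06 and in Spt7m by 0.45 ± 0.06. SUL2 rose there by 0.25 ± 0.08, 0.29 ± 0.08 and 0.46 ± 0.08. After median rescaling, the WT rises became 0.00 and 0.01 and that of SUL2 in Gcn5m 0.04, not called, and SUL2 in WT was not called without replicate 2 of WT in glucose (0.19).

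**Figure D4:**
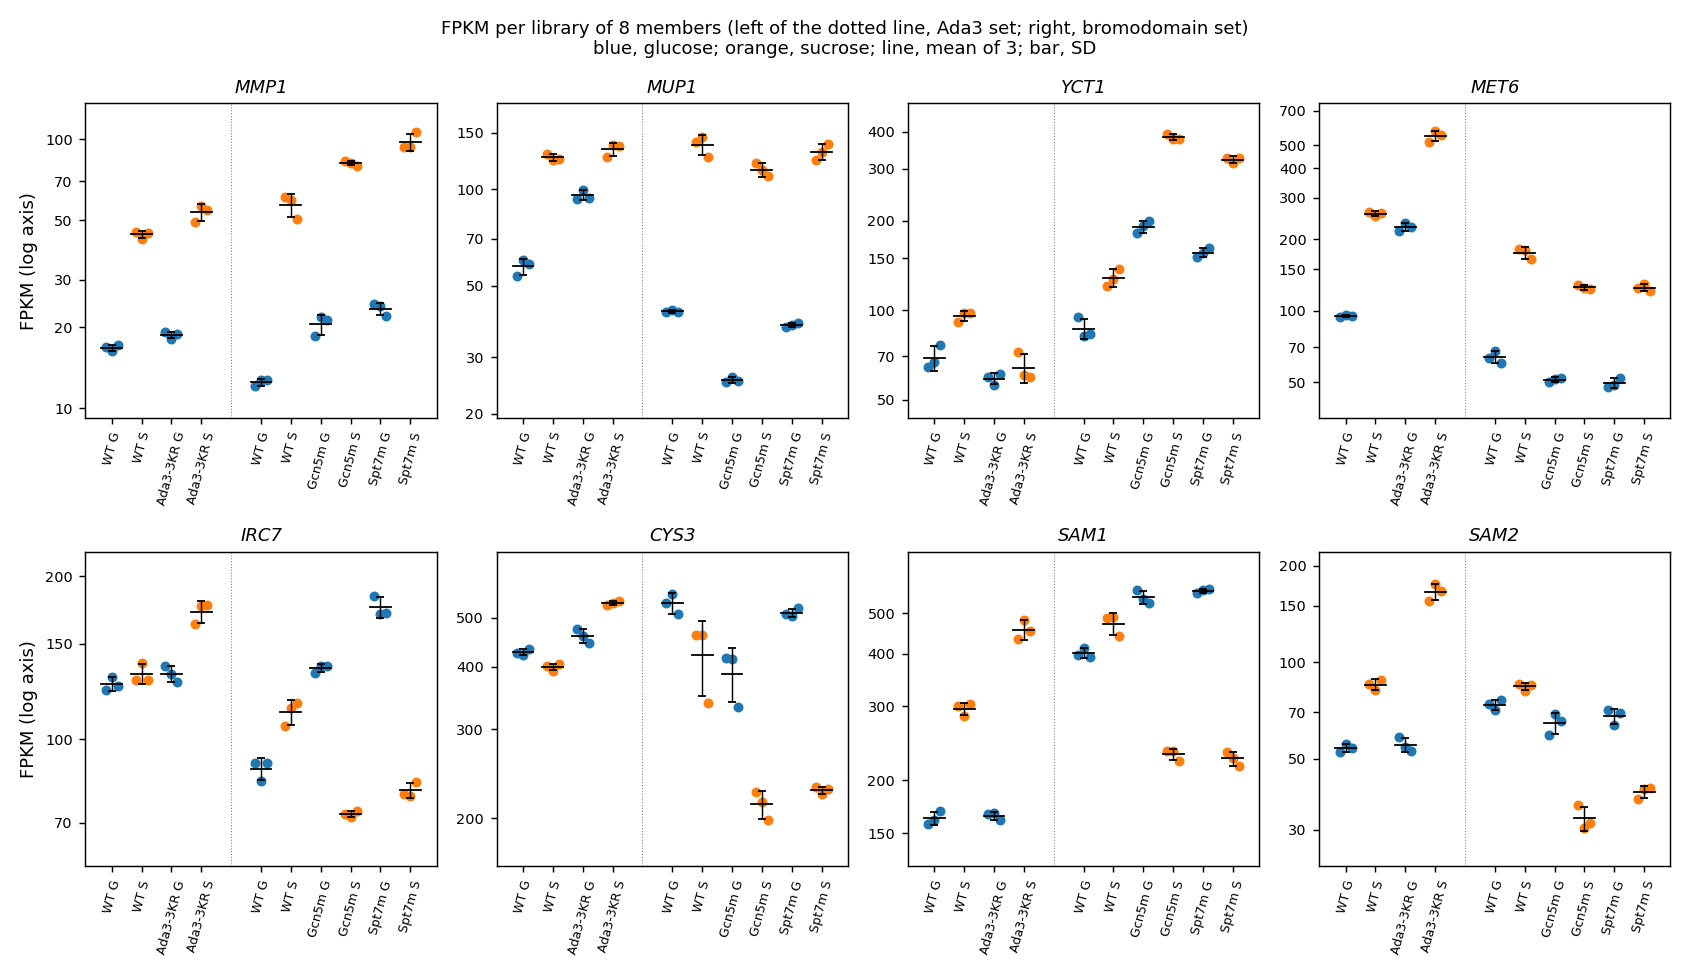
FPKM per library (log axis) of MMP1, MUP1, YCT1, MET6, IRC7, CYS3, SAM1 and SAM2, 1 panel per gene, with the Ada3 set left and the bromodomain set right of the dotted line, glucose in blue (G), sucrose in orange (S), a line at the mean of 3 libraries and bars for the SD. For SAM1 and SAM2 the orange points lie above the blue ones in the Ada3 set and below them in Gcn5m and Spt7m, and for YCT1 all Gcn5m and Spt7m points lie above WT in the same medium.

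Of the 8 sulfate assimilation members, 6 rose in sucrose in WT of the Ada3 set, 7 in Ada3-3KR, 6 in WT of the bromodomain set, 4 in Gcn5m and 3 in Spt7m, and 0, 0, 0, 1 and 1 fell. After median rescaling the rises were 5, 6, 3, 3 and 3 and the falls 0, 0, 1, 1 and 3. Of all genes, 32.7, 32.9, 50.9, 52.2 and 51.6% rose, and 18, 24.5, 22.8, 29.8 and 32.1% after median rescaling. Before rescaling, the rises of this group in Gcn5m and Spt7m were near or below that share, and after it slightly above. These counts were not compared by a test. MET3, the ATP sulfurylase that starts the pathway, had in the Ada3 set 12.4, 13.4 and 12.3 in WT in glucose, 24.2, 25.3 and 26.4 in WT in sucrose, 16.3, 16.3 and 16.1 in Ada3-3KR in glucose and 36.3, 44.7 and 41.01 in Ada3-3KR in sucrose. In that set the sucrose libraries were above the glucose ones, and Ada3-3KR was above WT in both media. MET3 had 14.3, 16.5 and 13.3 in WT of the bromodomain set in glucose and 19.3, 17.5 and 21.8 in sucrose. In Gcn5m MET3 had 9.70, 13.7 and 11.9 in glucose and 14.1, 13.6 and 12.2 in sucrose, and in Spt7m 15.3, 13.1 and 12.8 in glucose and 13.7, 13.2 and 14.1 in sucrose. In that set WT rose by 0.38 ± 0.11, which was lost after median rescaling (0.14), and the media overlapped in Gcn5m (0.18 ± 0.11, adjusted p = 0.144) and Spt7m (-0.00 ± 0.11, adjusted p = 0.977, and -0.26 and called after median rescaling). The APS kinase gene MET14 had in the Ada3 set 23.8, 23.8 and 25.8 in WT in glucose, 31.2, 37.4 and 40.9 in WT in sucrose, 23.3, 23.4 and 25.01 in Ada3-3KR in glucose and 59.9, 64.1 and 64.8 in Ada3-3KR in sucrose. The strains overlapped in glucose, and in sucrose Ada3-3KR was above WT. MET14 had 25.5, 27.5 and 30.4 in WT of the bromodomain set in glucose and 37.5, 40.3 and 34.8 in sucrose. In Gcn5m MET14 had 28.01, 28.8 and 25.5 in glucose and 27.98, 32.2 and 27.5 in sucrose, and in Spt7m 32.6, 32.3 and 31.9 in glucose and 32.8, 30.4 and 30.4 in sucrose. Here WT rose by 0.42 ± 0.07 (0.17 and not called after median rescaling), and the media overlapped in Gcn5m and Spt7m.

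MET10, a sulfite reductase subunit, had in the Ada3 set 12.9, 12.6 and 12.4 in WT in glucose, 22.9, 21.4 and 21.4 in WT in sucrose, 18.5, 17.4 and 16.7 in Ada3-3KR in glucose and 29.1, 33.5 and 31.9 in Ada3-3KR in sucrose. Sucrose lay above glucose in both strains, and Ada3-3KR lay above WT in both media. MET10 had 12.8, 12.2 and 13.6 in WT of the bromodomain set in glucose and 24.4, 24.5 and 23.8 in sucrose. In Gcn5m MET10 had 8.54, 9.97 and 9.03 in glucose and 31.1, 28.2 and 28.03 in sucrose, and in Spt7m 9.35, 9.85 and 9.04 in glucose and 23.99, 26.02 and 26.9 in sucrose. Gcn5m and Spt7m were below WT in glucose; in sucrose Gcn5m was above WT and Spt7m overlapped it. None of the other 5 members of this group was called with a change of 2-fold or more in any comparison. MET5, the other sulfite reductase subunit, rose in both strains of the Ada3 set (0.41 ± 0.08 in WT, 0.25 after quantile normalization, and 0.84 ± 0.08 in Ada3-3KR). MET16 ranged from 10.7 to 17.04 FPKM in the Ada3 set and from 5.86 to 15.4 in the bromodomain set, where Gcn5m and Spt7m were below WT in both media. MET1 and MET8, which make the siroheme cofactor of sulfite reductase, ranged over both sets from 7.72 to 24.3 and from 5.33 to 9.89 FPKM. MET22, the phosphatase that removes a by-product of sulfate reduction, fell in sucrose in Gcn5m (-0.49 ± 0.07) and Spt7m (-0.42 ± 0.07), which were -0.74 and -0.69 after median rescaling, and in their WT it was 0.01 ± 0.07, adjusted p = 0.945, which became -0.25 and was called after median rescaling.

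Of the 4 methionine synthesis members 3 rose in WT of each set, 2 in Ada3-3KR and 4 in Gcn5m and Spt7m, with 0 falling. After median rescaling the rises were 3 in both WT strains, 2 in Ada3-3KR and 3 in each bromodomain mutant, and 1 fell in Ada3-3KR and 1 in WT of the bromodomain set. MET6 in the Ada3 set had 94.5, 95.8 and 94.7 in WT in glucose, 261, 249.9 and 259 in WT in sucrose, 218, 234 and 226 in Ada3-3KR in glucose and 516, 574 and 552 in Ada3-3KR in sucrose. The 4 comparisons of groups within a strain or medium showed no overlap, and both Ada3-3KR groups were above WT in the same medium. MET6 had 63.4, 67.6 and 60.4 in WT of the bromodomain set in glucose and 182, 181 and 165 in sucrose. In Gcn5m MET6 had 49.8, 51.4 and 52.2 in glucose and 129, 125 and 123 in sucrose, and in Spt7m 47.5, 48.6 and 52.1 in glucose and 125, 129 and 121 in sucrose. WT was above Gcn5m and Spt7m in both media, without overlap. MET2, the homoserine acetyltransferase, had in the Ada3 set 13.9, 16.5 and 15.6 in WT in glucose, 22.4, 23.5 and 21.4 in WT in sucrose, 19.3, 18.8 and 18.9 in Ada3-3KR in glucose and 28.2, 30.2 and 28.8 in Ada3-3KR in sucrose. Sucrose lay above glucose in both strains. MET2 had 17.1, 15.7 and 15.8 in WT of the bromodomain set in glucose and 32.6, 33.3 and 36.6 in sucrose. In Gcn5m MET2 had 12.2, 12.8 and 14.1 in glucose and 38.2, 37.7 and 34.4 in sucrose, and in Spt7m 13.9, 13.2 and 12.5 in glucose and 39.02, 41.03 and 37.2 in sucrose. All 3 strains were higher in sucrose, and Gcn5m was below WT in glucose (-0.29 ± 0.07, -0.19 after quantile normalization) and overlapped it in sucrose.

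MET13, which makes the methyl-tetrahydrofolate used by Met6, had in the Ada3 set 33.4, 33.3 and 35.5 in WT in glucose, 37.9, 33.7 and 33.4 in WT in sucrose, 32.3, 29.2 and 30.7 in Ada3-3KR in glucose and 26.5, 28.9 and 28.5 in Ada3-3KR in sucrose. The media overlapped in WT (0.04 ± 0.06, adjusted p = 0.665). MET13 had 27.3, 29.2 and 30.4 in WT of the bromodomain set in glucose and 28.9, 29.8 and 29.02 in sucrose. In Gcn5m MET13 had 18.5, 21.5 and 19.05 in glucose and 44.6, 40.04 and 39.2 in sucrose, and in Spt7m 21.01, 20.98 and 22.4 in glucose and 43.3, 44.3 and 42.3 in sucrose. In WT the media overlapped (0.01 ± 0.06, adjusted p = 0.841, and -0.23 and called after median rescaling), whereas MET13 rose in Gcn5m (1.03 ± 0.06) and Spt7m (0.98 ± 0.06), which were below WT in glucose and above it in sucrose. MET12, the second gene for this activity, ranged from 45.4 to 63.4 FPKM in the Ada3 set and from 45.4 to 63.9 in the bromodomain set. In Spt7m its rise in sucrose was 0.25 ± 0.05, and -0.02 after median rescaling and -0.02 after quantile normalization.

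Transsulfuration and cysteine genes split by enzyme: STR2 and STR3 rose in sucrose in all 5 strains, while CYS3 and IRC7 fell in Gcn5m and Spt7m. STR3 in the Ada3 set had 5.07, 5.81 and 5.48 in WT in glucose, 15.2, 16.7 and 16.3 in WT in sucrose, 12.2, 11.5 and 10.9 in Ada3-3KR in glucose and 27.4, 34.8 and 32.4 in Ada3-3KR in sucrose. Ada3-3KR was above WT in both media, and sucrose above glucose in both strains. STR3 had 5.42, 4.15 and 5.47 in WT of the bromodomain set in glucose and 13.3, 16.3 and 12.4 in sucrose. In Gcn5m STR3 had 3.13, 4.62 and 3.58 in glucose and 11.2, 10.01 and 11.2 in sucrose, and in Spt7m 4.63, 3.86 and 2.37 in glucose and 9.61, 9.65 and 10.6 in sucrose. The strains overlapped in glucose, and in sucrose WT was above Gcn5m and Spt7m. The difference from WT in sucrose was -0.34 ± 0.16, adjusted p = 0.0656 in Gcn5m and -0.44 ± 0.16 in Spt7m, the latter -0.29 and not called after quantile normalization and -0.33 and not called without replicate 2 of WT in sucrose. STR2, the cystathionine gamma-synthase, had in the Ada3 set 39.8, 42.4 and 40.9 in WT in glucose, 62.8, 63.3 and 61.6 in WT in sucrose, 50.1, 48.7 and 51.8 in Ada3-3KR in glucose and 59.7, 59.6 and 61.6 in Ada3-3KR in sucrose. It rose by 0.60 ± 0.04 in WT and 0.26 ± 0.04 in Ada3-3KR. STR2 had 32.7, 34.8 and 38.1 in WT of the bromodomain set in glucose and 64.97, 68.4 and 71.6 in sucrose. In Gcn5m STR2 had 34.3, 35.3 and 37.1 in glucose and 79.4, 80.9 and 74.7 in sucrose, and in Spt7m 30.4, 34.3 and 33.4 in glucose and 78.95, 74.4 and 79.5 in sucrose. In each of these strains sucrose lay above glucose, and the strains overlapped in glucose.

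CYS3 in the Ada3 set had 427, 422 and 433 in WT in glucose, 402, 392 and 404 in WT in sucrose, 476, 459 and 445 in Ada3-3KR in glucose and 529.6, 536 and 540.4 in Ada3-3KR in sucrose. It was -0.10 ± 0.03 in WT, -0.22 after median rescaling and lost without replicate 3 of WT in glucose (-0.09) or replicate 2 of WT in sucrose (-0.08), and rose by 0.22 ± 0.03 in Ada3-3KR. CYS3 had 535, 559 and 509 in WT of the bromodomain set in glucose and 463, 462 and 339 in sucrose. In Gcn5m CYS3 had 416, 414 and 332 in glucose and 226, 215 and 199 in sucrose, and in Spt7m 508, 505 and 522 in glucose and 230.0, 223 and 228 in sucrose. In sucrose every Gcn5m and Spt7m library was below every WT library. IRC7 in the Ada3 set had 123, 130.5 and 125 in WT in glucose, 129, 138 and 128 in WT in sucrose, 137, 132 and 127 in Ada3-3KR in glucose and 163, 176 and 177 in Ada3-3KR in sucrose. WT was 0.06 ± 0.04, adjusted p = 0.298 between the media, and Ada3-3KR rose by 0.38 ± 0.04. IRC7 had 90.4, 83.5 and 90.3 in WT of the bromodomain set in glucose and 106, 114 and 117 in sucrose. In Gcn5m IRC7 had 132, 137 and 136 in glucose and 72.8, 71.7 and 73.7 in sucrose, and in Spt7m 184, 171 and 171 in glucose and 79.3, 78.5 and 83.3 in sucrose. Gcn5m and Spt7m were above WT in glucose and below it in sucrose, without overlap in either medium. CYS4, the cystathionine beta-synthase, ranged from 208 to 306 FPKM in the Ada3 set and from 410.4 to 605 in the bromodomain set. Between the media it was 0.11 ± 0.04 in Gcn5m (-0.15 after median rescaling, -0.09 after quantile normalization) and 0.08 ± 0.04, adjusted p = 0.0884 in Spt7m (-0.19 and -0.15). The Gcn5m call of CYS4 was lost without replicate 1 or 2 of Gcn5m in glucose (0.08 and 0.10) or in sucrose (0.09 and 0.10).

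In the SAM cycle, 3 members rose and 2 fell in sucrose in WT of each set (1 and 2 in the bromodomain set after median rescaling), 5 rose in Ada3-3KR (4 after median rescaling), and in both Gcn5m and Spt7m 1 rose and 4 fell. SAM1 in the Ada3 set had 158, 161 and 169 in WT in glucose, 300.3, 285 and 303 in WT in sucrose, 167, 167 and 161 in Ada3-3KR in glucose and 433, 482 and 453 in Ada3-3KR in sucrose. The strains overlapped in glucose, and Ada3-3KR was above WT in sucrose. SAM1 had 397, 413 and 393 in WT of the bromodomain set in glucose and 487, 489 and 440.3 in sucrose. In Gcn5m SAM1 had 567, 539 and 527 in glucose and 235, 235 and 222 in sucrose, and in Spt7m 559, 567 and 569 in glucose and 234, 226 and 217 in sucrose. In glucose Gcn5m and Spt7m were above WT, and in sucrose below it, without overlap. SAM2 in the Ada3 set had 52.6, 55.6 and 54.2 in WT in glucose, 85.4, 81.8 and 88.3 in WT in sucrose, 58.5, 54.5 and 52.9 in Ada3-3KR in glucose and 156, 176 and 167 in Ada3-3KR in sucrose. As for SAM1, the strains overlapped in glucose and did not in sucrose. SAM2 had 74.4, 70.9 and 76.2 in WT of the bromodomain set in glucose and 85.5, 81.5 and 85.3 in sucrose. In Gcn5m SAM2 had 59.6, 68.98 and 65.5 in glucose and 35.9, 30.4 and 31.5 in sucrose, and in Spt7m 70.9, 63.8 and 69.4 in glucose and 37.5, 40.4 and 40.6 in sucrose. In sucrose every Gcn5m and Spt7m library was below every WT library. SAM1 and SAM2 are 83.9% identical over 1125 bases, so some reads could match both.

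MHT1 in the Ada3 set had 5.96, 4.59 and 5.73 in WT in glucose, 18.03, 14.7 and 17.97 in WT in sucrose, 11.6, 13.03 and 9.80 in Ada3-3KR in glucose and 28.9, 31.5 and 31.2 in Ada3-3KR in sucrose. Ada3-3KR was above WT in both media. MHT1 had 5.41, 3.87 and 4.07 in WT of the bromodomain set in glucose and 22.4, 23.2 and 21.7 in sucrose. In Gcn5m MHT1 had 6.22, 7.48 and 7.75 in glucose and 27.4, 24.6 and 25.4 in sucrose, and in Spt7m 6.11, 6.91 and 8.30 in glucose and 28.1, 27.2 and 28.2 in sucrose. In sucrose Gcn5m lay above WT, with a change that was not called (0.19 ± 0.10, adjusted p = 0.108, and 0.27 and called after median rescaling). SAH1 had the highest mean FPKM of the members in WT in glucose, 634 ± 16.5 (SD, n = 3) in the Ada3 set and 1043 ± 9.82 in the bromodomain set, and MHT1 the lowest, 5.43 ± 0.73 and 4.45 ± 0.84, which STR3 overlapped. Between the media SAH1 rose in Ada3-3KR (0.51 ± 0.03) and fell in Gcn5m (-0.71 ± 0.05) and Spt7m (-0.66 ± 0.05). It also fell in the WT of both sets. SAM4 fell in Gcn5m (-0.70 ± 0.05) and Spt7m (-0.93 ± 0.05), by more than in their WT (-0.18 ± 0.05, -0.44 after median rescaling).

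Among the 6 regulators, 5 rose in sucrose in each WT, Gcn5m and Spt7m and 3 in Ada3-3KR, with 0 falling. After median rescaling the rises were 2 in WT of the Ada3 set, 2 in Ada3-3KR and 3 in each strain of the bromodomain set, and 1 fell in Spt7m. Beside them stand the 32.7 and 32.9% of all genes that rose in the Ada3 set and the 50.9, 52.2 and 51.6% in the bromodomain set, or 18, 24.5, 22.8, 29.8 and 32.1% in the 5 strains after median rescaling. MET4, the activator, had in the Ada3 set 19.7, 20.7 and 19.5 in WT in glucose, 25.8, 25.5 and 24.7 in WT in sucrose, 17.6, 19.3 and 20.05 in Ada3-3KR in glucose and 25.3, 25.9 and 25.99 in Ada3-3KR in sucrose. Both strains rose, by 0.33 ± 0.05 in WT, 0.21 after median rescaling, and 0.42 ± 0.05 in Ada3-3KR. MET4 had 26.4, 28.6 and 28.6 in WT of the bromodomain set in glucose and 42.7, 41.1 and 41.99 in sucrose. In Gcn5m MET4 had 30.8, 29.7 and 28.9 in glucose and 49.6, 48.2 and 46.1 in sucrose, and in Spt7m 25.6, 28.7 and 28.2 in glucose and 45.9, 46.99 and 47.3 in sucrose. Here the rise was 0.57 ± 0.05 in WT, 0.67 ± 0.05 in Gcn5m and 0.75 ± 0.05 in Spt7m, and 0.32, 0.41 and 0.48 after median rescaling, still called. MET28, the Met4 and Cbf1 cofactor, had in the Ada3 set 10.7, 19.05 and 12.9 in WT in glucose, 20.1, 19.7 and 22.1 in WT in sucrose, 21.2, 18.99 and 20.3 in Ada3-3KR in glucose and 24.3, 26.2 and 22.5 in Ada3-3KR in sucrose. Its spread between libraries was wide for its level; it rose by 0.55 ± 0.14 in WT and was 0.26 ± 0.14, adjusted p = 0.146 in Ada3-3KR. MET28 had 8.79, 8.95 and 6.04 in WT of the bromodomain set in glucose and 21.98, 21.6 and 19.5 in sucrose. In Gcn5m MET28 had 7.88, 7.76 and 6.39 in glucose and 12.6, 13.5 and 14.1 in sucrose, and in Spt7m 4.60, 7.19 and 7.30 in glucose and 18.6, 13.04 and 14.5 in sucrose. It rose in all 3 strains, by 1.32 ± 0.15, 0.79 ± 0.15 and 1.16 ± 0.15.

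MET30, the ubiquitin ligase subunit that restrains Met4, had in the Ada3 set 19.2, 21.1 and 22.6 in WT in glucose, 26.2, 25.03 and 25.2 in WT in sucrose, 22.5, 19.2 and 20.7 in Ada3-3KR in glucose and 24.3, 24.97 and 24.6 in Ada3-3KR in sucrose. Between the media WT differed by 0.27 ± 0.07 and Ada3-3KR by 0.24 ± 0.07, both lost after median rescaling (0.15 and 0.17). MET30 had 25.5, 26.5 and 24.2 in WT of the bromodomain set in glucose and 37.1, 39.03 and 37.9 in sucrose. In Gcn5m MET30 had 21.2, 20.9 and 18.8 in glucose and 36.2, 36.6 and 33.6 in sucrose, and in Spt7m 21.3, 22.2 and 21.6 in glucose and 36.8, 36.7 and 36.2 in sucrose. MET30 rose by 0.56 ± 0.05, 0.78 ± 0.05 and 0.73 ± 0.05 in WT, Gcn5m and Spt7m, with 0.31 in WT and 0.47 in Spt7m after median rescaling and 0.52 in Gcn5m after quantile normalization. CBF1, the E-box binding factor, had in the Ada3 set 48.5, 47.95 and 49.2 in WT in glucose, 59.5, 52.01 and 57.04 in WT in sucrose, 61.1, 62.4 and 61.9 in Ada3-3KR in glucose and 76.6, 78.5 and 79.6 in Ada3-3KR in sucrose. Ada3-3KR was above WT in both media. CBF1 had 56.4, 60.9 and 62.4 in WT of the bromodomain set in glucose and 78.3, 74.03 and 81.999 in sucrose. In Gcn5m CBF1 had 35.4, 44.2 and 42.6 in glucose and 53.4, 52.6 and 49.2 in sucrose, and in Spt7m 46.7, 43.1 and 44.9 in glucose and 56.96, 56.1 and 51.9 in sucrose. WT was above Gcn5m and Spt7m in both media, without overlap.

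MET32, which brings Met4 to CTGTGG sites, had in the Ada3 set 15.1, 16.3 and 13.96 in WT in glucose, 15.9, 19.96 and 17.3 in WT in sucrose, 24.2, 24.8 and 24.9 in Ada3-3KR in glucose and 29.4, 27.3 and 25.05 in Ada3-3KR in sucrose. Ada3-3KR was above WT in both media. MET32 had 14.4, 11.3 and 14.01 in WT of the bromodomain set in glucose and 17.3, 20.3 and 18.2 in sucrose. In Gcn5m MET32 had 10.03, 11.1 and 13.01 in glucose and 13.6, 13.4 and 12.6 in sucrose, and in Spt7m 13.3, 10.5 and 12.2 in glucose and 16.4, 16.7 and 15.5 in sucrose. WT was 0.47 ± 0.10 and Spt7m 0.41 ± 0.10 between the media, both lost after median rescaling (0.22 and 0.16), and Gcn5m was 0.20 ± 0.10, adjusted p = 0.0764. MET31, the paralog of MET32, had in the Ada3 set 20.2, 20.8 and 21.7 in WT in glucose, 21.7, 22.4 and 17.8 in WT in sucrose, 24.8, 22.3 and 26.9 in Ada3-3KR in glucose and 26.01, 22.4 and 23.7 in Ada3-3KR in sucrose. The media overlapped in both strains (-0.02 ± 0.09, adjusted p = 0.846 in WT and -0.03 ± 0.09, adjusted p = 0.776 in Ada3-3KR). MET31 had 24.3, 23.98 and 22.6 in WT of the bromodomain set in glucose and 21.7, 29.1 and 28.9 in sucrose. In Gcn5m MET31 had 19.9, 21.2 and 21.7 in glucose and 24.4, 24.6 and 25.9 in sucrose, and in Spt7m 22.9, 18.4 and 20.9 in glucose and 23.01, 19.6 and 20.8 in sucrose. The media overlapped in WT and Spt7m. The change of MET31 was 0.25 ± 0.10 in Gcn5m and 0.03 ± 0.10, adjusted p = 0.81 in Spt7m, which became -0.01 and -0.23 after median rescaling and -0.02 and -0.22 after quantile normalization. The Gcn5m call of MET31 was lost without replicate 1 of Gcn5m in glucose (0.21) or replicate 3 of Gcn5m in sucrose (0.22).

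The pathway was also followed in 37 other genes of sulfur and methionine metabolism, among them those for homoserine, glutathione, polyamines, methionine salvage and amino acid uptake, all of which were tested. In sucrose 9 rose and 4 fell in WT of the Ada3 set, 18 and 3 in Ada3-3KR, 24 and 3 in WT of the bromodomain set, 20 and 9 in Gcn5m and 20 and 11 in Spt7m. After median rescaling these counts were 6 and 14, 14 and 7, 7 and 15, 11 and 16, and 14 and 16, so the direction of this list depends on the scaling in all strains other than Ada3-3KR. GNP1, an amino acid permease, rose in WT of the Ada3 set (0.99 ± 0.04), Ada3-3KR (0.90 ± 0.04), WT of the bromodomain set (1.04 ± 0.04), Gcn5m (1.64 ± 0.04) and Spt7m (1.55 ± 0.04). ARO9, an aromatic aminotransferase, rose in WT of the Ada3 set (0.90 ± 0.05), WT of the bromodomain set (1.86 ± 0.07), Gcn5m (3.65 ± 0.07) and Spt7m (3.52 ± 0.07), with interactions of 1.79 ± 0.10 in Gcn5m and 1.66 ± 0.10 in Spt7m and -0.81 ± 0.07 in Ada3-3KR. CHO2, a SAM-dependent phospholipid methyltransferase, fell in Gcn5m (-1.06 ± 0.07) and Spt7m (-0.82 ± 0.07). ADO1, the adenosine kinase that removes the adenosine released by Sah1, was lower than WT in sucrose in Gcn5m (-0.88 ± 0.06) and Spt7m (-0.85 ± 0.06), and the branched-chain permease gene BAP2 was lower in Ada3-3KR in glucose (-1.07 ± 0.04) and sucrose (-1.42 ± 0.04). Against WT, this list had 16 genes higher and 10 lower in Ada3-3KR in glucose and 19 and 6 in sucrose, 9 and 19 in Gcn5m in glucose and 8 and 18 in sucrose, and 6 and 14 in Spt7m in glucose and 9 and 16 in sucrose. After median rescaling these were 15 and 13, 21 and 6, 10 and 17, 15 and 15, 11 and 10, and 11 and 14. In the same 6 comparisons 40.2, 33.8, 20.8, 28, 15.7 and 28.8% of all genes were higher and 22.1, 22.2, 41.2, 42.6, 37.5 and 41.5% lower, and after median rescaling 34, 34.6, 28, 34.1, 22.5 and 34.3% and 26.5, 22.1, 32.5, 36.3, 24.9 and 35.5%. Nothing particular to the list is read from these counts.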

How the data were processed

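The authors deposited gene FPKM values, in a table per set, which were taken unchanged. Tools listed in the submitters' processing notes are StringTie 1.3.3b, HISAT2 2.1.0 and cutadapt 1.16, with R64 as the build; the annotation, strand setting and filters are not given in the sources used here. The input of each library was 1 µg of total RNA, per the labels' protocols. Read counts are not given in the sources used here, so depth is unknown.

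Groups and replicates came from the labels, and the columns of all 30 libraries entered. The scale log2(FPKM + 1) understates the change of low genes. Tests covered the 5830 and 5841 genes whose mean in a set reached 1 FPKM. limma 3.58.1 (R 4.3.3, with version 1.17.8 of data.table) was fitted per set with 1 mean per group, a variance trend and Benjamini-Hochberg adjustment per comparison, over 14 comparisons, and the script was tested on simulated data. Alternatives were a pseudocount of 0.1, no filter, quantile normalization, median rescaling, a replicate block and leaving out each library. Every member is covered by counts or ranges; values in every library are given for members called with a log2 change of at least 1 in any comparison and for the 6 regulators, and the up to 8 largest called changes per comparison, and some of the up to 4 per comparison from the list of 37 other genes, are named. Further members were named to complete a role. The members and lists were chosen with earlier results of these data known. Sequences and positions are from the R64 reference, the build the notes name; copies were sought with BLAST 2.17.0 and tables and figures made with Python 3.11.15, pandas 2.3.3 and matplotlib 3.10.9.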

Additional observations from a re-analysis of the deposited data

Results flagged for a closer look

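The sucrose effect of these members differed between a mutant and its own WT by limma's interaction test, adjusted over all tested genes, and the values are differences of log2 changes. In Ada3-3KR the difference was largest for SAM2 (0.93), MET14 (0.81), SAH1 (0.71), MUP1 (-0.64), SAM1 (0.60), MUP3 (-0.52), MET5 (0.43) and SAM4 (0.42). In Gcn5m SAM1 (-1.47), IRC7 (-1.23), SAM2 (-1.15), MET13 (1.02), SAM3 (0.79), MET10 (0.70), SAM4 (-0.52) and CYS3 (-0.50) differed from WT. In Spt7m, tested against the same WT libraries, SAM1 (-1.55), IRC7 (-1.46), MET13 (0.97), SAM2 (-0.95), CYS3 (-0.81), SAM4 (-0.75), SAM3 (0.74) and MET10 (0.49) differed. A negative value means a lower change in sucrose in the mutant than in WT, and all 24 values kept their sign and call under the alternatives listed in the processing. Gcn5m and Spt7m also carried URA3 RNA, which was near 0 in WT, and its part in these differences was not tested.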

How the results depend on the processing

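The numbers of members called stayed within 1.5 times the reported ones in all 14 comparisons under a pseudocount of 0.1, no filter on low values, quantile normalization, median rescaling, a replicate block and without each library in turn. Without 1 library, 25 to 27 members were called between the media in WT of the Ada3 set and, for Ada3-3KR, 25 to 26, 20 to 23, 21 to 25 and 14 to 17 in the sugar, glucose, sucrose and interaction comparisons. The ranges were 29 to 32, 29 to 32 and 29 to 30 for the media in WT, Gcn5m and Spt7m, 20 to 24, 26 to 28 and 16 to 19 for Gcn5m against WT in glucose, in sucrose and for the interaction, and 19 to 21, 24 to 28 and 15 to 17 for Spt7m. Of 490 single values (35 members in 14 comparisons), 490 kept their direction and call with the other pseudocount, 485 without a filter, 419 under quantile normalization and 428 under median rescaling. The values whose sign turned under a scaling, with a call before or after it, were as follows; the cause was not tested. After median rescaling, the sucrose change became -0.154 for CYS4, -0.006 for MET31 and -0.0608 for MUP3 in Gcn5m, -0.193 for CYS4, -0.0151 for MET12 and -0.232 for MET31 in Spt7m, and -0.234 for MET13, -0.246 for MET22, -0.0241 for SAM1 and -0.0684 for SAM2 in WT of the bromodomain set. After quantile normalization it became -0.086 for CYS4, -0.0164 for MET31 and -0.013 for MUP3 in Gcn5m, -0.153 for CYS4, -0.0207 for MET12 and -0.215 for MET31 in Spt7m, and -0.219 for MET13, -0.222 for MET22, -0.042 for SAM2 and -0.0116 for SUL2 in that WT, and CYS3 in Ada3-3KR against WT in glucose became -0.0532. Samples share replicate numbers across groups, but the numbers were not taken as pairs: deviations of same-numbered libraries correlated at -0.25 to 0.41 in the Ada3 set (11 of 18 pairs over 0.1) and -0.43 to 0.34 in the bromodomain set (13 of 45). Differently numbered libraries passed 0.1 in 10 of 36 and 34 of 90 pairs, with medians of -0.11 and 0.01 against 0.14 and -0.03 for the same number. All 3 same-numbered pairs passed 0.1 in 1 of 6 pairs of groups in the Ada3 set, the WT media, and in 0 of 15 in the other. A library was closest to its own number in 18 of 36 matches to another group and in 23 of 90. By these measures same-numbered libraries were more alike than others in the Ada3 set and not in the bromodomain set, which was not tested. With the replicate block, 28, 26, 23, 24 and 16 members were called in the comparisons of the Ada3 set, in the order above, and 31, 30, 29, 24, 26, 17, 22, 28 and 15 in those of the bromodomain set, and of the 490 values 483 kept their call. Depth is unknown, so counting noise could not be read, and 3 libraries per group limit what a missed call means.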
